A study of Homo sapiens with 12 samples.

Results

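Fibrillins and the proteins that assemble with them into extracellular microfibrils were followed across 4 stable lines made from A549, a cell line of human lung adenocarcinoma. The family comprised 10 genes taken by symbol from the 60623 genes of the count table, namely the fibrillins FBN1 and FBN2, the latent TGF-beta binding proteins LTBP1, LTBP2, LTBP3 and LTBP4, the small microfibril glycoproteins MFAP2 and MFAP5, and the fibulins EFEMP1 and FBLN1. The members were chosen by their names and known function with results of these libraries in view, among them the high level of FBN1 in SD, so FBN1 is described in the comparisons with SD and not tested there. A total of 8 members passed the filter on low counts, while MFAP2 and MFAP5 had no count in any of the 12 libraries.

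The lines carried a lentiviral construct in the pLV-EF1a-IRES-Hygro vector, whose name gives the EF1a promoter, and were selected with 200 µg/ml hygromycin for 72 h. V received the empty vector, WT received HA-tagged wild-type AHR, SA received HA-AHR with the S489A substitution, which cannot be phosphorylated at this serine, and SD received HA-AHR with the phosphomimetic S489D substitution. The AHR gene of A549 itself remained in all 4 lines. The labels describe the 3 libraries per line as biological replicates, and since nothing states that they came from separate cultures, the p-values measure the spread between these libraries. Each construct was carried by 1 line, for which the sources used here do not say whether it was a clone or a pool, so a construct and any other difference between lines cannot be told apart.

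Fibrillins are large glycoproteins that polymerise into microfibrils, on which elastic fibres are built in the lung and other elastic tissues. Latent TGF-beta binding proteins share their domain structure, bind to microfibrils and, with the exception of LTBP2, tether the inactive TGF-beta complex to the matrix until integrins or proteases release it. AHR is a ligand-activated transcription factor that binds DNA at a GCGTG core together with ARNT.

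The depth of the libraries ranged from 7844045 to 11765576 counts, at which a gene without a count could be present at up to 0.255 to 0.382 CPM (counts scaled to a common library total), a limit of 3 counts that covers counting error only. Levels are given in CPM with TMM-scaled library sizes. AHR averaged 69.1 ± 4.51 CPM in V (standard deviation of 3 libraries), against 266 ± 28.3 for WT, 223 ± 5.87 for SA and 210.0 ± 9.14 for SD, which separates V from the AHR lines and does not check WT, SA and SD against one another. The pair of libraries of a line that differed most was SD replicates 1 and 3 (chi-square per degree of freedom 6.43, against 2.45 to 4.57 in the other pairs), and no library was a copy of another. The defining markers of fibroblasts, the main source of microfibrils in tissue, were mixed, with COL1A2 and DCN at 0 in all 12 libraries and 7 of the 10 listed markers under 1 CPM throughout, while TWIST2 (11.6 to 20.7 CPM) and COL1A1 (5.34 to 13.1 CPM) were present in every library. COL1A1 fell against V by 0.79 on the log2 scale in WT (adjusted p = 0.00649) and by 0.60 in SA (adjusted p = 0.0278), the comparisons in which FBN2 and LTBP1 fell, and gave -0.50 in SD (adjusted p = 0.0928, edgeR). Its part in those differences was not tested. The summed fibroblast markers lay at 30.1 to 30.5 CPM for V, 25.4 to 29.9 for WT, 25.3 to 27.3 for SA and 21.4 to 27.6 for SD. No endothelial list summed above 0.316 CPM, and of the leukocyte list only CD14 passed 1 CPM, at 11.4 to 22.4 CPM. The epithelial keratins KRT7, KRT8 and KRT18 and CDH1 were abundant, whereas EPCAM lay between 0.381 and 1.75 CPM and KRT19 at or below 0.536 CPM, and the sum of the 6 epithelial markers was 7621 to 8018 CPM for V, 6418 to 6517 for WT, 6218 to 6375 for SA and 5767 to 6064 for SD. KRT7, KRT8 and KRT18 had their lowest means in SD, but CDH1 did not, with means of 170, 112, 112 and 126 CPM in V, WT, SA and SD. CDH1 fell against V by 0.60 on the log2 scale in WT, 0.60 in SA and 0.43 in SD (adjusted p = 7.75e-09, 1.18e-07 and 3.83e-05, edgeR). SD against WT gave 0.17 (adjusted p = 0.279). The part of these declines in the differences between lines was not tested. In bulk RNA, fewer cells with a transcript and less transcript per cell cannot be told apart.

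The regions before the start sites are shown for FBN1 and FBN2, the fibrillins that differed between lines, and for LTBP1, which has the window with the most GCGTG cores among the members. Each window covers the 250 bases before a RefSeq start site, with no exon base in it, on GRCh38.p14. The windows lie at chr15:48644971-48645220 (minus strand, FBN1), chr5:128538246-128538495 (minus strand, FBN2) and chr2:32946703-32946952 (plus strand, LTBP1, the first of its 3 windows). Capitals mark GCGTG or its reverse complement CACGC, and the sequences run 5′ to 3′ on the strand of the gene.
FBN1: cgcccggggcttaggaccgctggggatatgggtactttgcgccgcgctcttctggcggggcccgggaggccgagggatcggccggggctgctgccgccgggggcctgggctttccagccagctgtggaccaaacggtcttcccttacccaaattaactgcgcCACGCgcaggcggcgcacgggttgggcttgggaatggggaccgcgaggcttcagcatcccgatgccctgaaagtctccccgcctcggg
FBN2: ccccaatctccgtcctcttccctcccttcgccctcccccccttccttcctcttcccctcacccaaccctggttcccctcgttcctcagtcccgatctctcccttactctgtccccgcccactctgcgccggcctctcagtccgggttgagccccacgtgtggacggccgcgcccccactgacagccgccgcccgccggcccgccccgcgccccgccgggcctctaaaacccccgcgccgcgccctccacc
LTBP1: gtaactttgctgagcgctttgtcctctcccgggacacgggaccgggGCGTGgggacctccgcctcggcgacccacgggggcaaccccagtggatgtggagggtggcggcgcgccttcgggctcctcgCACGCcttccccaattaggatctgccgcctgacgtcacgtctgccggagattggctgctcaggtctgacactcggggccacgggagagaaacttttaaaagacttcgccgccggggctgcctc

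The FBN1 window held 1 core, on the opposite strand and 88 bases before the start, and the LTBP1 window held 2, at 204 bases on the strand of the gene and at 123 bases on the other. No core was found in the FBN2 window. A core on either strand was also found in a window of LTBP4 and in the windows of MFAP2. None was found in the later LTBP1 windows or in those of LTBP2, LTBP3 and FBLN1. Among all 35116 RefSeq windows of the same length, 32.2% held GCGTG on either strand. The longer form TNGCGTG was found in 4.52% of all windows and in none of the windows of the 8 members with an entry, and EFEMP1 and MFAP5 had no entry. The RefSeq starts used for FBN1 and FBN2 lie within the deposited genes, chr15:48408306-48645849 and chr5:128257909-128659185, and not at their ends. These matches describe the letters of the windows, and binding was not measured.

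FBN1 (ENSG00000166147, chr15:48408306-48645849, minus strand), the principal fibrillin of adult tissue and the gene mutated in Marfan syndrome, was highest in SD. Its 3 libraries gave 54.1, 45.5 and 55.1 CPM in V, 58.2, 51.1 and 53.5 CPM in WT, 59.0, 49.9 and 53.9 CPM in SA, and 83.9, 75.9 and 73.0 CPM in SD. All 3 SD libraries lay above the 9 libraries of the other lines, which overlapped one another. The means were 51.6 ± 5.27, 54.3 ± 3.61, 54.3 ± 4.55 and 77.6 ± 5.62 CPM in this order (standard deviation, n = 3). As a description, the log2 fold change of FBN1 in SD was 0.52 over WT, 0.52 over SA and 0.59 over V. These values lay between 0.46 and 0.64 whichever single library was left out. Among the other lines, whose values may also have been known when the gene was chosen, WT and V differed by 0.07 ± 0.08 (adjusted p = 0.748) and SA and V by 0.07 ± 0.08 (adjusted p = 0.701, edgeR's quasi-likelihood test with Benjamini-Hochberg adjustment over all genes tested, used throughout).

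FBN2 (ENSG00000138829, chr5:128257909-128659185, minus strand), the fibrillin associated with development and mutated in congenital contractural arachnodactyly, followed another order. It reached 58.8, 63.5 and 65.1 CPM in V, 38.5, 41.7 and 33.5 CPM in WT, 36.4, 37.0 and 37.4 CPM in SA, and 53.5, 60.0 and 47.8 CPM in SD. WT and SA were low in every library, and SD lay above them and overlapped V only through its second library. FBN2 fell by 0.72 on the log2 scale in WT against V (SE 0.08, adjusted p = 6.63e-07) and by 0.76 in SA against V (SE 0.07, adjusted p = 7.79e-08), while SD against V gave -0.22 ± 0.08 (adjusted p = 0.133). Against the other AHR lines FBN2 was higher in SD, by 0.50 ± 0.09 over WT (adjusted p = 0.00834) and by 0.54 ± 0.09 over SA (adjusted p = 0.00557). Leaving out SD replicate 2, WT replicate 1 or WT replicate 3 raised the adjusted p against WT to 0.0875, 0.0521 and 0.0764, with log2 fold changes of at least 0.41. Leaving out SA replicate 2 or SD replicate 2 raised that against SA to 0.0512 and 0.0535, so neither call held in every such fit.

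**Figure D1:**
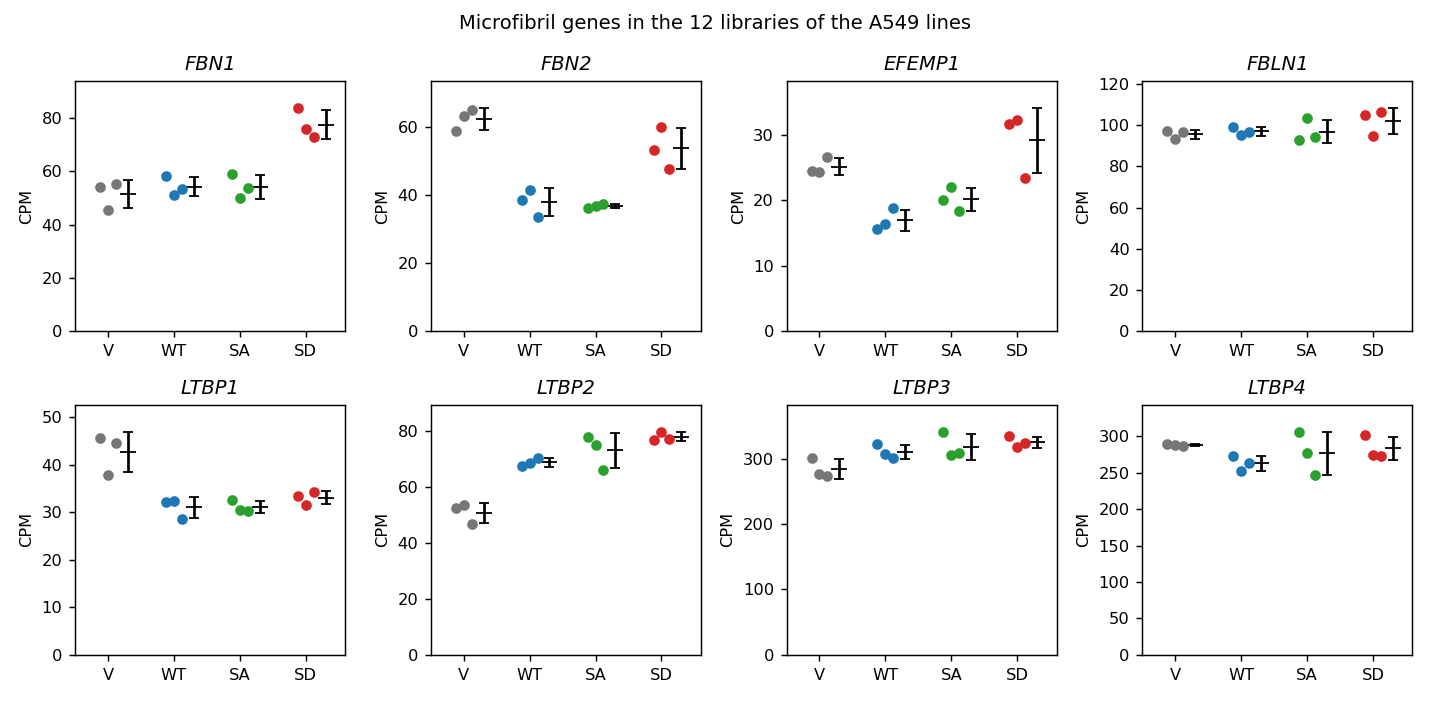
Levels of the 8 expressed members in CPM (y axis, from 0) in the V, WT, SA and SD lines (x axis), where each point is 1 library and the bar beside it gives the mean and standard deviation of 3 libraries. FBN1, FBN2 and EFEMP1 were higher in every SD library than in any WT or SA library, LTBP1 was lower and LTBP2 higher in SD, WT and SA than in V, and FBLN1 and LTBP4 overlapped between most lines.

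Within a library, the ratio of FBN1 to FBN2 set V apart from all 3 AHR lines. It was 0.920, 0.717 and 0.847 in V, 1.51, 1.23 and 1.60 in WT, 1.62, 1.35 and 1.44 in SA, and 1.57, 1.26 and 1.53 in SD. The V libraries were all below 1 and the other 9 all above it, with means of 1.44 ± 0.195 in WT, 1.47 ± 0.139 in SA and 1.45 ± 0.165 in SD (standard deviation, n = 3). The ratio thus overlapped between SD, WT and SA although both fibrillins were more abundant in SD. It contains FBN1 and is given as a description.

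EFEMP1 (ENSG00000115380, chr2:55865967-55924139, minus strand) encodes fibulin-3, a secreted matrix glycoprotein of the fibulin family. It gave 24.6, 24.3 and 26.6 CPM in V, 15.6, 16.4 and 18.8 CPM in WT, 20.0, 22.0 and 18.5 CPM in SA, and 31.7, 32.4 and 23.4 CPM in SD. Every SD library exceeded every WT and SA library, and the third SD library lay below the V libraries. EFEMP1 rose by 0.78 ± 0.13 in SD against WT (adjusted p = 0.00180), a call kept when any single library was left out (adjusted p from 7.46e-05 to 0.0250). In SD against SA the log2 fold change was 0.53 ± 0.12, which did not pass the test (adjusted p = 0.0991) but did so without SD replicate 3 (0.67, adjusted p = 0.00547). The remaining single omissions gave adjusted p-values of up to 0.437. EFEMP1 fell by 0.57 on the log2 scale in WT against V (SE 0.11, adjusted p = 0.00124), whereas SA against V gave -0.32 ± 0.10 (adjusted p = 0.0626) with no overlap of the libraries, and SD against V gave 0.21 ± 0.11 (adjusted p = 0.352).

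FBLN1 (ENSG00000077942, chr22:45502238-45601135, plus strand), which encodes fibulin-1, a partner of fibronectin and elastic fibres, did not pass the test in any comparison. Its level was 93.1 to 97.3 CPM for V, 95.2 to 99.1 for WT, 93.0 to 103 for SA and 94.7 to 106 for SD. SD differed from V by 0.10 on the log2 scale (adjusted p = 0.477) and from WT by 0.08 (adjusted p = 0.736).

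Of the latent TGF-beta binding proteins, LTBP1 and LTBP2 moved in opposite directions in the AHR lines. LTBP1 (ENSG00000049323, chr2:32946953-33399509, plus strand), which binds the latent forms of the TGF-beta ligands covalently, gave 45.8, 38.0 and 44.7 CPM in V, 32.1, 32.4 and 28.6 in WT, 32.7, 30.6 and 30.4 in SA, and 33.5, 31.5 and 34.3 in SD. The V libraries lay above the 9 others. LTBP1 fell by 0.46 on the log2 scale in WT against V (SE 0.09, adjusted p = 0.00131), by 0.46 in SA against V (SE 0.09, adjusted p = 0.000896) and by 0.37 in SD against V (SE 0.09, adjusted p = 0.0123). The difference in SD no longer passed when SD replicate 2 (adjusted p = 0.0759), V replicate 1 (0.0973) or V replicate 3 (0.0739) was left out. Between SD and WT the difference was 0.09 (adjusted p = 0.785), and between SD and SA 0.09 (adjusted p = 0.827).

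LTBP2 (ENSG00000119681, chr14:74498183-74612378, minus strand), the member of this group that does not bind latent TGF-beta and competes with other LTBPs for fibrillin-1, gave 52.4, 53.4 and 46.6 CPM in V, 67.3, 68.6 and 70.4 in WT, 78.0, 75.1 and 66.1 in SA, and 76.8, 79.8 and 77.2 in SD. All 9 AHR-line libraries lay above the V libraries. LTBP2 rose by 0.44 ± 0.07 in WT against V (adjusted p = 0.000182), by 0.52 ± 0.08 in SA against V (adjusted p = 3.67e-05) and by 0.62 ± 0.07 in SD against V (adjusted p = 1.87e-06). These calls were kept whichever single library was left out. SD also lay above WT in every library, but that difference of 0.18 ± 0.07 did not pass the test (adjusted p = 0.274).

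The ratio of LTBP2 to LTBP1 in a library was 1.14, 1.41 and 1.04 in V, 2.09, 2.12 and 2.46 in WT, 2.39, 2.46 and 2.18 in SA, and 2.29, 2.53 and 2.25 in SD. No AHR-line library reached down to the V values, and the 3 AHR lines overlapped, with means of 2.22 ± 0.204, 2.34 ± 0.146 and 2.36 ± 0.151 against 1.20 ± 0.187 in V (standard deviation, n = 3). With 3 libraries against 3, an exact permutation test of a ratio cannot give a p below 0.1.

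**Figure D2:**
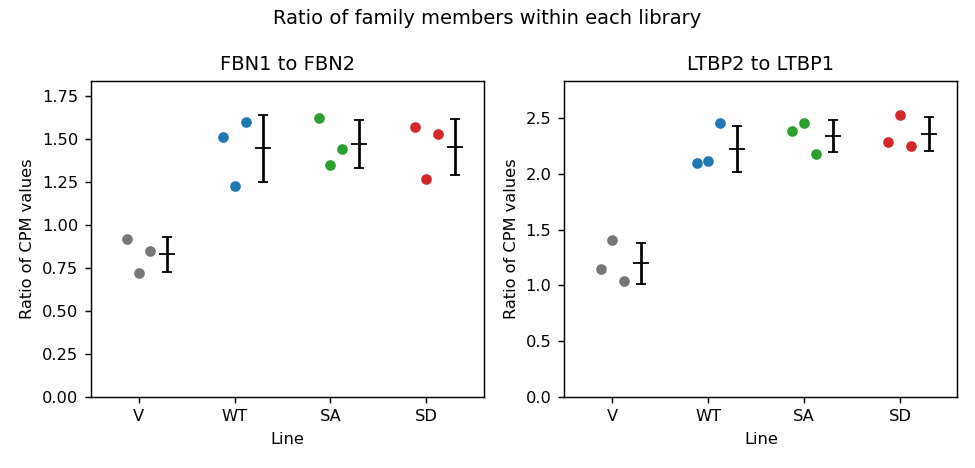
Ratios of CPM values within each library (y axis, from 0) for FBN1 to FBN2 and for LTBP2 to LTBP1 in the 4 lines (x axis), with 1 point per library and the mean and standard deviation of 3 libraries beside them. In both panels the V points lie below all points of WT, SA and SD, which overlap one another.

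LTBP3 and LTBP4 differed little between lines. LTBP3 (ENSG00000168056, chr11:65538805-65558930, minus strand), which also carries latent TGF-beta and is known for its role in teeth and bone, gave 301, 277 and 273 CPM in V, 322, 307 and 300.5 in WT, 341, 305 and 308 in SA, and 334, 318 and 323 in SD. The SD and SA libraries lay above those of V, and WT overlapped V through a single library. LTBP3 rose by 0.20 ± 0.05 in SD against V (adjusted p = 0.0309), which no longer passed when SD replicate 2 (adjusted p = 0.0798), V replicate 2 (0.141) or V replicate 3 (0.188) was left out. SA against V gave 0.16 ± 0.05 (adjusted p = 0.0595, but 0.0433 and 0.0258 with the other count filters) and WT against V gave 0.12 ± 0.05 (adjusted p = 0.142). LTBP4 (ENSG00000090006, chr19:40592883-40629818, plus strand), which takes part in the assembly of elastic fibres, gave 289.9, 288 and 287 CPM in V, 273, 252 and 263 in WT, 306, 276 and 247 in SA, and 302, 275 and 273 in SD. The WT libraries lay below those of V, with a log2 fold change of -0.13 ± 0.05 that did not pass the test (adjusted p = 0.0863), and SA and SD overlapped V.

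MFAP2 (ENSG00000117122, chr1:16974502-16980632, minus strand) and MFAP5 (ENSG00000197614, chr12:8637346-8662888, minus strand), which bind fibrillin and decorate microfibrils, had 0 counts in all 12 libraries. Their levels were therefore below the limit of 0.255 to 0.382 CPM set by depth, and no fold change is given.

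Compared per kb of merged exons, LTBP4 was the most abundant member in every line (32.4 to 35.5 CPM per kb as line means), followed by LTBP3 (24.6 to 28.2) and FBLN1 (13.1 to 14.0). LTBP2, EFEMP1 and LTBP1 formed a middle group between 4.22 and 8.58 CPM per kb, and the fibrillins were lowest, FBN1 at 2.78 to 4.19 and FBN2 at 2.07 to 3.50. FBN2 stood above FBN1 in V and below it in WT, SA and SD. In SD, FBN1 and LTBP1 were neighbours at 4.19 and 4.51 CPM per kb, and EFEMP1 and LTBP2 at 7.37 and 8.58. The order depends on the length used, since with the longest annotated transcript LTBP3 stood above LTBP4 in all 4 lines, and in SD EFEMP1 stood above LTBP2 and FBN1 above LTBP1.

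**Figure D3:**
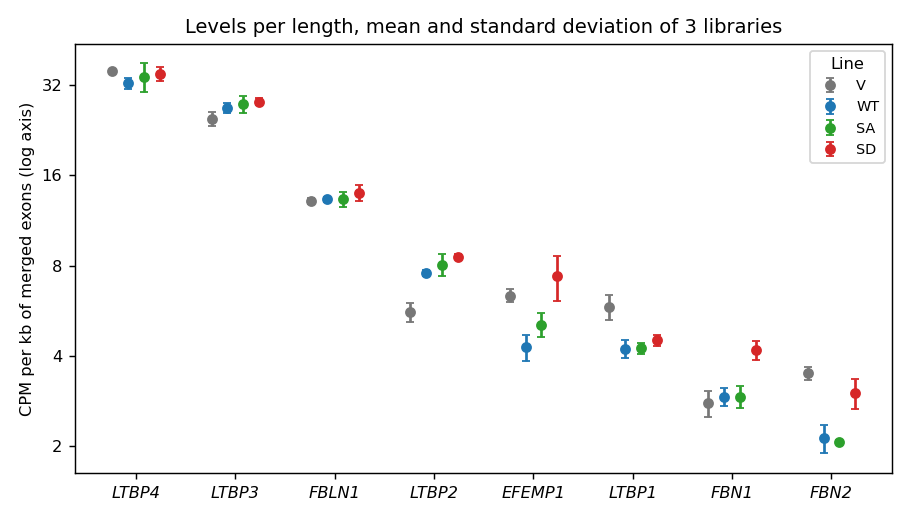
Levels of the 8 expressed members per kb of merged exons (y axis, log scale, CPM per kb) in the order of their SD values (x axis), with the mean and standard deviation of 3 libraries for each line in colour. LTBP4, LTBP3 and FBLN1 lie above 13 CPM per kb in every line, and FBN1 and FBN2 exchange places between V and the AHR lines.

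Counted by comparison, 2 of 7 tested members were called in SD against WT (FBN2 and EFEMP1, both higher), where 0.708% of all tested genes were called, 0.513% higher and 0.196% lower. A single member of 7, FBN2, was called against SA (higher), where 0.220% of genes were called, 0.160% higher and 0.0599% lower. The median log2 fold change of the tested members was 0.11 over WT and 0.09 over SA, beside medians of all genes of -0.00081 and 0.00064. In WT against SA, edgeR called none of the 8 members, with 1 at an unadjusted p under 0.05, and 0.0803% of all genes were called, 0.0201% higher and 0.0602% lower in WT. DESeq2 called neither LTBP3 nor LTBP4 there. It gave the other 6 members no adjusted p, so it could not call them.

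Against V, 4 of 8 members were called in WT (LTBP2 higher, FBN2, LTBP1 and EFEMP1 lower), beside 5.24% of all genes, 2.31% higher and 2.93% lower. In SA 3 of 8 were called (LTBP2 higher, FBN2 and LTBP1 lower), beside 7.17% of all genes, 3.88% higher and 3.29% lower. In SD 3 of 7 were called (LTBP2 and LTBP3 higher, LTBP1 lower), beside 5.41% of all genes, 2.92% higher and 2.49% lower. The medians were -0.06, -0.02 and 0.10 in WT, SA and SD against V, with medians of all genes of 0.0018, -0.0024 and 0.0029. The members were chosen with results known, and the 3 comparisons share the V libraries, as those with SD share the SD libraries, so the counts describe each comparison on its own.

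**Figure D4:**
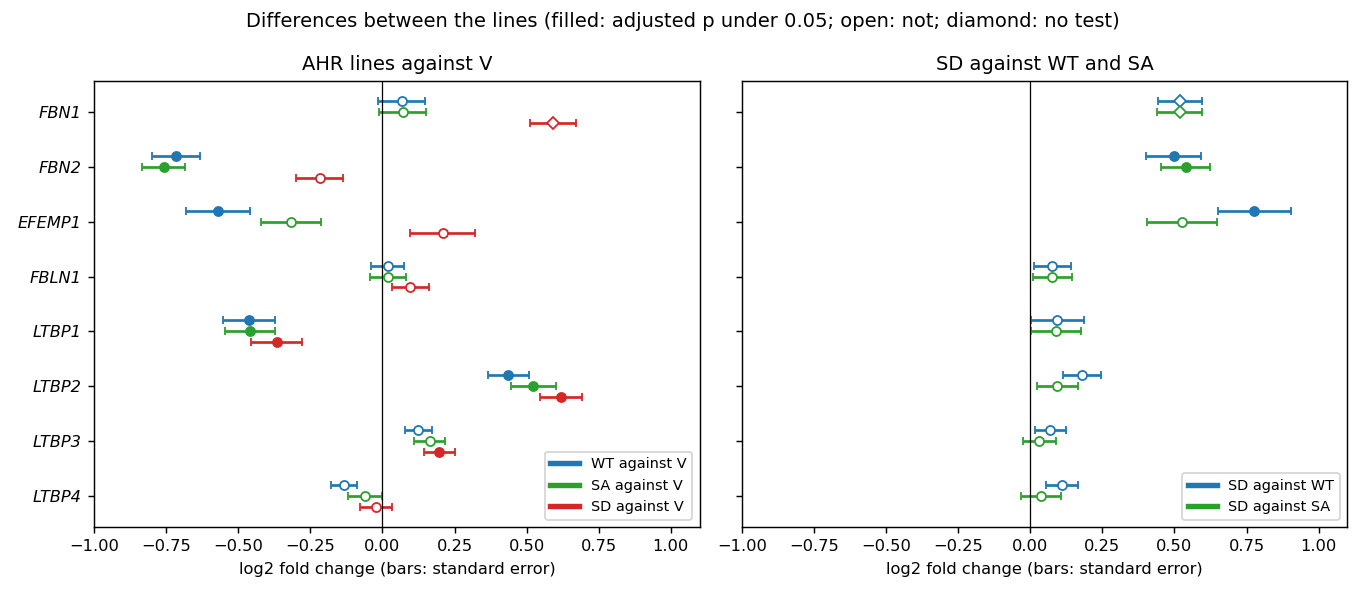
Log2 fold changes of the 8 expressed members (x axis, bars for the standard error) in WT, SA and SD against V (left) and in SD against WT and SA (right), with filled symbols for an adjusted p under 0.05, open circles for those above it and diamonds for FBN1 in comparisons with SD, which has no test and whose bars are not to be read as one. LTBP1 lies left and LTBP2 right of 0 in all 3 AHR lines against V, and FBN1, FBN2 and EFEMP1 lie right of 0.25 in SD against WT and SA.

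The partners of the family were described from 4 gene lists, whose counts stand beside the shares of all genes called, 0.708% in SD against WT, 0.220% in SD against SA, 0.0803% in WT against SA, 5.24% in WT against V, 7.17% in SA against V and 5.41% in SD against V. The list of elastic fibre and microfibril partners held 33 genes, of which 20 or 21 were tested in a comparison. Elastin itself was hardly detected, with ELN means of 0.174 to 0.350 CPM in the 4 lines. LOXL2, a lysyl oxidase that cross-links collagen and elastin, gave 283, 283 and 278 CPM in V, 397, 379 and 371 in WT, 433, 366 and 381 in SA, and 421, 366 and 377 in SD. All AHR-line libraries exceeded those of V. LOXL2 rose by 0.44 ± 0.04 in WT (adjusted p = 4.3e-08), 0.48 ± 0.05 in SA (adjusted p = 7.67e-07) and 0.47 ± 0.06 in SD (adjusted p = 3.34e-06) against V, and SD and WT differed by 0.02 (adjusted p = 0.934). ADAMTSL4, a secreted protein that binds fibrillin-1 and is mutated in ectopia lentis, averaged 12.1 ± 1.58 CPM for V, 18.2 ± 0.972 for WT, 17.1 ± 2.48 for SA and 21.1 ± 2.73 for SD (standard deviation, n = 3). It rose by 0.59 ± 0.13 in WT (adjusted p = 0.00576), 0.49 ± 0.14 in SA (adjusted p = 0.0331) and 0.79 ± 0.14 in SD (adjusted p = 0.000381) against V, and the SA value did not pass without SA replicate 1 (0.106), SA replicate 3 (0.141), V replicate 2 (0.0969) or V replicate 3 (0.147), nor with DESeq2 (0.0674).

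In WT against V the list also held THSD4, which promotes microfibril assembly (-0.18 ± 0.04, adjusted p = 0.0102), and HSPG2, which encodes perlecan (-0.17 ± 0.04, adjusted p = 0.0187), which made 2 partners higher and 2 lower. The median over the list was -0.04. In SD against V 3 were higher and none lower, the third being POGLUT3 (0.37 ± 0.11, adjusted p = 0.0459), an enzyme that glucosylates fibrillins, which did not pass with DESeq2 (adjusted p = 0.116) or when any library other than SD replicate 3 was left out (up to 0.209). In SA against V 2 were higher and 1 lower. The proteoglycan gene VCAN, which binds fibrillin-1 through its product versican, was the 1 partner called in SD over WT (1.62 ± 0.35, adjusted p = 0.0265) and over SA (1.95 ± 0.35, adjusted p = 0.0161), and the 1 lower in SA against V (-1.22 ± 0.37, adjusted p = 0.0449). Its SD libraries were at 6.71, 5.90 and 3.12 CPM against 1.78, 2.28 and 0.891 in WT, a low level. None of these calls held in every fit with a library left out. In those fits the log2 fold change stayed between 1.33 and 1.98 over WT and between 1.72 and 2.25 over SA. The call over WT held only when SD replicate 3 or WT replicate 2 was the library left out, and that over SA only when SD replicate 3 or SA replicate 1 was (adjusted p of up to 0.140 and 0.131 otherwise). The call in SA against V held only without SA replicate 1 (up to 0.237 otherwise) and was not made by DESeq2 (0.0704) or with all 12 libraries in 1 fit (0.0627). The medians of the list in SD were 0.10 against WT, 0.09 against SA and 0.15 against V.

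Among 15 TGF-beta ligands and activators, 13 were tested. ITGB3, the beta subunit of an integrin that releases TGF-beta from its latent complex, gave 13.1, 17.4 and 14.2 CPM in V, 25.4, 26.5 and 22.4 in WT, 26.5, 25.9 and 28.4 in SA, and 35.6, 27.5 and 35.6 in SD. No AHR-line library overlapped V. Its rise against V was 0.74 ± 0.12 in WT (adjusted p = 0.000173), 0.85 ± 0.12 in SA (adjusted p = 1.1e-05) and 1.15 ± 0.12 in SD (adjusted p = 4.18e-07). MMP2, a gelatinase that cleaves matrix proteins, rose by 1.16 ± 0.15, 1.08 ± 0.16 and 1.71 ± 0.13 in the same order (adjusted p = 6.23e-06, 3.28e-05 and 1.98e-09). It was also higher in SD than in WT (0.54 ± 0.11, adjusted p = 0.0215) and SA (0.63 ± 0.11, adjusted p = 0.0154). The difference from WT did not pass without WT replicate 2 (0.122), WT replicate 3 (0.0653), SD replicate 1 (0.0658) or SD replicate 2 (0.0535), and that from SA without SA replicate 2 (0.162) or SA replicate 3 (0.0683).

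The ligand gene TGFB2 was at 173, 156 and 149 CPM in SD against 125, 124 and 130 in WT, with no overlap. It was higher by 0.34 ± 0.06 in SD against WT (adjusted p = 0.00626), a call lost without WT replicate 1 (0.0589), and SD against SA gave 0.20 ± 0.06 (adjusted p = 0.351). Against V, TGFB2 was called neither in SD (0.17 ± 0.06, adjusted p = 0.114) nor in WT (-0.17 ± 0.05, adjusted p = 0.0668). TGFB1 was called in SA against V (0.19 ± 0.05, adjusted p = 0.0167), which was lost without V replicate 1 (0.140) or V replicate 3 (0.0569). Over the list, SD held 2 higher genes against WT (0.708% of all genes called), 1 against SA (0.220%) and 2 against V (5.41%), and V was exceeded by 2 genes in WT (5.24%) and 3 in SA (7.17%), while none were lower. The medians of the list in SD were 0.08 against WT, 0.10 against SA and 0.10 against V. In WT against SA none were called, with 2 at an unadjusted p under 0.05.

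**Figure D5:**
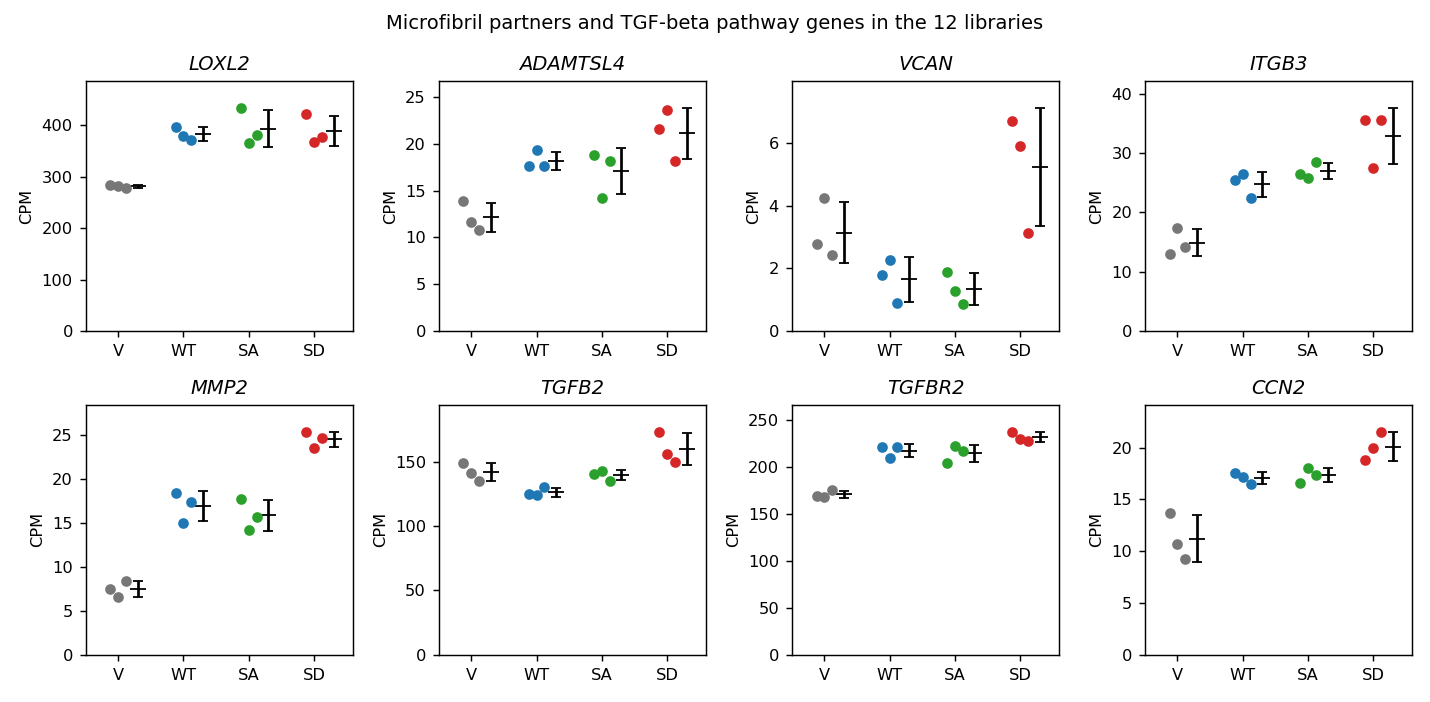
Levels in CPM (y axis, from 0) of 8 partner and pathway genes in the 4 lines (x axis), with 1 point per library and the mean and standard deviation of 3 libraries beside them. LOXL2, ADAMTSL4, ITGB3, MMP2, TGFBR2 and CCN2 lie above V in every library of WT, SA and SD. VCAN lies below 7 CPM throughout and is lower in the last SD library than in the other 2.

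Of 11 receptor and SMAD genes, 9 or 10 were tested. TGFBR2, the receptor that binds the ligand first, was at 169, 168 and 176 CPM in V and between 205 and 238 CPM in the AHR lines. It rose by 0.34 ± 0.05 in WT (adjusted p = 1.49e-05), 0.33 ± 0.05 in SA (adjusted p = 9.29e-05) and 0.44 ± 0.05 in SD (adjusted p = 3.48e-06) against V. These calls were kept in every omission of a single library. The second gene called was SMAD3 in WT (0.17 ± 0.04, adjusted p = 0.0141) and TGFBR1 in SA (0.25 ± 0.08, adjusted p = 0.0439) and SD (0.28 ± 0.08, adjusted p = 0.0344), none of which held throughout. SMAD3 did not pass without V replicate 1 (0.115) or WT replicate 1 (0.0846), and TGFBR1 did not pass with DESeq2 (0.108 in SA and 0.0888 in SD). With a library left out, TGFBR1 passed in SA only without SA replicate 1 (otherwise up to 0.171) and in SD in no case (up to 0.154). The medians of the list were 0.07 in SD against WT and 0.09, 0.12 and 0.08 in WT, SA and SD against V. With edgeR none of the list was called between SD and WT, SD and SA or WT and SA, with 3, 1 and 2 at an unadjusted p under 0.05 and none called by DESeq2. DESeq2 could call only genes that it gave an adjusted p, which in WT against SA left out most members of the family.

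Of 12 genes known to respond to TGF-beta, 10 were tested. The median of their log2 fold changes lay at 0.22 for SD against WT, with 9 of the 10 above 0, and -0.11 in WT against SA, with none above 0, beside medians of all genes of -0.00081 and -0.0015. It was 0.08 in SD against SA, and -0.07, 0.07 and 0.12 in WT, SA and SD against V. CCN2, which encodes connective tissue growth factor, gave 13.7, 10.7 and 9.26 CPM in V, 17.5, 17.2 and 16.5 in WT, 16.6, 18.0 and 17.4 in SA, and 18.8, 19.9 and 21.6 in SD. The AHR lines lay above V in every library. CCN2 rose by 0.60 ± 0.14 in WT (adjusted p = 0.00932), 0.63 ± 0.14 in SA (adjusted p = 0.00558) and 0.84 ± 0.14 in SD (adjusted p = 0.000301) against V, and the WT call was lost without V replicate 3 (0.0688).

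In WT against V, 1 response gene was higher and 1 lower, COL4A1 (-0.18 ± 0.05, adjusted p = 0.0265, but up to 0.184 without V replicate 1, V replicate 2, WT replicate 2 or WT replicate 3 and 0.140 with all 12 libraries in 1 fit). In SA against V 3 were higher, the others being PMEPA1 (0.21 ± 0.06, adjusted p = 0.0233, but up to 0.131 without SA replicate 2, SA replicate 3, V replicate 1 or V replicate 2) and BHLHE40 (0.21 ± 0.05, adjusted p = 0.0143, lost without V replicate 1 at 0.0827). In SD against V, CCN2 was the 1 higher gene. EdgeR called none between SD and WT, SD and SA or WT and SA, with 5, 1 and 4 at an unadjusted p under 0.05, and DESeq2 called 1, 1 and 0. Here too DESeq2 could call only genes that it gave an adjusted p.

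The 5 genes whose log2 CPM followed that of FBN1 most closely over the 12 libraries, among 10272 genes with a mean of at least 10 CPM, were the matrix protease gene ADAMTS12 (r = 0.928), the complement gene C3 (r = 0.912), the collagen gene COL4A5 (r = 0.906), the lipid transporter gene ABCA7 (r = 0.904) and the receptor gene LRP12 (r = 0.896). The 12 points come from 4 lines, and the coefficients are descriptive. C3 averaged 202 CPM for V, 194 for WT, 201 for SA and 280.3 for SD, and COL4A5, a chain of basement membrane collagen, averaged 90.0, 101, 106 and 141 CPM.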

How the data were processed

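Poly(A) RNA of 12 libraries from 4 A549 lines (3 per line) was sequenced. The submitters' processing notes name Trimmomatic 0.39, RSEM, edgeR and GRCh38. The authors deposited RSEM expected counts per gene, not normalized, in which a read matching several genes is divided among them. Between 3.24% and 3.61% of values in a library were not whole, and the members' counts all were. A second deposited table holds the authors' own log2 fold changes, p-values and q-values and was not used. No per-sample column was left unused. Whether strand was used in counting is not given in the sources used here.

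Expected counts were rounded and fitted in R 4.3.3 with edgeR 4.0.16 for each of 6 pairs of lines on its 6 libraries, with filterByExpr (at least 10 counts, 15 in total), TMM scaling, and the two-sided quasi-likelihood test without covariates. Benjamini-Hochberg adjustment ran over all genes tested, and an adjusted p under 0.05 was counted as called. The standard error of a log2 fold change was its absolute value divided by the square root of the F statistic of the test. Levels are CPM with TMM factors from all 12 libraries. Levels per kb used merged exons of GENCODE v44, and coordinates are the deposited ones on GRCh38. Promoter windows came from RefSeq (GRCh38.p14), with 8 of 10 members matched. The members, gene lists and tests were chosen with earlier results of these data known. The genes named are the members, at most the 3 called genes of largest change per list and comparison, marker genes, AHR and the 5 genes most correlated with FBN1. HSPG2 was named after its value was seen. The alternatives were DESeq2 1.42.0, DESeq2's size factors, other count filters, all 12 libraries in 1 fit, a replicate block, omission of each library in turn, and other exon lengths. Some results on overlapping and listed genes are not reported here. The script for the tests was tried on simulated data. Figures were drawn with matplotlib 3.10.9.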

Additional observations from a re-analysis of the deposited data

How the results depend on the processing

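The 45 member fold changes that had a test were refitted under 6 alternatives (DESeq2, its size factors, the other count filters, all 12 libraries in 1 fit and the replicate block), which gave 264 values, since DESeq2 gave no adjusted p for 6, all in WT against SA. In 254 of them the direction and the side of the threshold were kept. In 7 a member passed newly. These were EFEMP1 in SD against SA with all 12 libraries in 1 fit (adjusted p = 0.0438), with every gene of at least 1 count (0.00142) and under the replicate block (0.0125), EFEMP1 in SA against V under the block (0.0484), and LTBP3 in SA against V with every gene of at least 1 count (0.0258), with at least 10 counts in every library (0.0433) and under the block (0.0136). The other 3 changed sign, all uncalled in WT against SA, namely FBLN1 (-0.0019 as reported) with DESeq2's size factors (0.00040) and with at least 10 counts in every library (0.0012), and FBN1 under the block (0.00065). With a single library left out, 240 of 270 values kept direction and side, 11 lost the call, 1 gained it and 18 changed sign, and no called value changed sign. Ranges that crossed 0 were, in WT against SA, -0.061 to 0.058 for FBN1, -0.038 to 0.126 for FBN2, -0.038 to 0.054 for LTBP1, -0.070 to 0.011 for LTBP3, -0.147 to 0.0030 for LTBP4 and -0.031 to 0.048 for FBLN1. They were, against V, -0.013 to 0.116 for FBN1 in WT, -0.010 to 0.130 for FBN1 in SA, -0.136 to 0.016 for LTBP4 in SA, -0.070 to 0.0031 for LTBP4 in SD and -0.028 to 0.050 for FBLN1 in SA, and -0.040 to 0.114 for LTBP4 in SD against SA. FBN1 in the comparisons with SD had no test and moved by less than the spread between libraries in all fits. The number of members called in SD against SA was thus 2 with all 12 libraries in 1 fit, with every gene of at least 1 count and under the replicate block, against 1 as reported. With each library left out in turn the count was 1 to 2 in SD against WT, 0 to 2 in SD against SA and 1 to 3 in SD against V, and it did not move in WT against V (4), SA against V (3) or WT against SA (0). The cause of these changes was not tested.

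The labels number the replicates alike in each line. Deviations of same-numbered libraries correlated between -0.0377 and 0.106 over 15453 genes, and only replicate 1 in SA against V lay above 0.1. The numbers were therefore not taken to pair the libraries. Each library correlated best with its own number only in SD against WT, SD against SA and WT against SA. With the replicate block the members called were 2 in SD against SA and 5 in SA against V (3 as reported). Under the block SMAD3 in WT against V (adjusted p = 0.0621), TGFBR1 in SD against V (0.0551) and POGLUT3 in SD against V (0.0749) were no longer called. The members called in the other 4 comparisons stayed within 1.5 times the count reported.

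Of the counts over the 4 partner lists, 127 stayed within 1.5 times under these alternatives and 17 did not, among them 5 partners called in SA against V under the block (3 as reported) and 3 response genes called in SD against WT under the block or without a count filter (0 as reported). Leaving out a library moved 39 and kept 105. Low counts limit VCAN and elastin, and 3 libraries per line limit the precision of small changes.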
